A study of Mus musculus with 71 samples.

Results

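The Period genes (Per1, Per2, Per3) and the cryptochrome genes (Cry1, Cry2) encode the repressors of the circadian clock. They were followed here through hippocampal mRNA bound to phosphorylated ribosomes in 71 mice. The members were chosen by name, as the 5 of 57010 rows of the count table that map to these genes, and all 5 passed the filter of at least 10 counts in total. Male wild-type C57BL/6J mice were given normal chow ad libitum (NC ad lib), a high-fat high-sugar diet ad libitum (HFS ad lib), or the same diet ad libitum and then, for the last weeks, as time-restricted feeding with food mostly in the dark phase (HFS TRF). Where the 3 diets are listed together, NC ad lib comes first, HFS ad lib next and HFS TRF last. Mice of each diet stayed in the home cage (HC) and were killed at zt3 or zt15 (hours after lights on), or were trained in object recognition memory (ORM) and killed 1 h or 12 h later. Each of the 12 groups held 6 mice, except HFS TRF HC zt15 with 5. The HC zt3 and ORM+1 h mice formed the first experiment (36 mice) and the HC zt15 and ORM+12 h mice the second (35 mice). As the labels give both HC zt3 and ORM+1 h the time zt3 while the trained mice were killed later in the day, training and a somewhat later clock time cannot be told apart. Nor can the hour of the day be told apart from the experiment.

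In the mammalian clock, CLOCK and BMAL1 bind E-box elements and switch on the Per and Cry genes, and PER and CRY proteins return to the nucleus to block that activation. PER proteins recruit casein kinase and set the timing of the complex, and CRY proteins are the stronger repressors of transcription. In the hippocampus Per1 and Per2 are also known as genes that respond to neuronal activity through cAMP response elements, and Per1 to glucocorticoids. The capture used here, pS6-TRAP, pulls down ribosomes with an antibody against phosphorylated ribosomal protein S6, a mark that rises with neuronal activity, so that a level is the share of a gene among mRNAs on such ribosomes.

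Total counts ranged from 34698914 to 62758570 per mouse (median 53999489), and each member had at least 554 counts in every mouse. Levels are given as CPM, the counts of a gene scaled to a fixed total per library, with TMM factors that ran from 0.938 to 1.04. Markers of neurons (6 genes, summed 7169 to 9591 CPM) and of hippocampal principal cells (6 genes, 817 to 1250 CPM) were present in all mice, and the summed endothelial markers reached at most 14.5 CPM. Markers of choroid plexus (8 genes) summed to between 100 and 18822 CPM and differed strongly between mice in each group. Microglial markers reached 328 CPM in HFS ad lib HC zt15 replicate 2, against at most 77.2 CPM elsewhere. Each library pools captured mRNA from many cells. Cell number, RNA per cell and the capture of a cell type's ribosomes therefore cannot be told apart.

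Per1 (ENSMUSG00000020893) lies at chr11:68986035-69002300 of GRCm39 on the + strand, and Per2 (ENSMUSG00000055866) at chr1:91343700-91387069 on the − strand. Per3 (ENSMUSG00000028957) spans chr4:151081373-151129140, Cry1 (ENSMUSG00000020038) chr10:84967560-85021252 and Cry2 (ENSMUSG00000068742) chr2:92233894-92264474, all on the − strand. The annotation places Gm72400 opposite Per1, Uts2 and Gm69183 opposite Per3, and D930015M05Rik opposite Cry2. The libraries were stranded, but the strand setting of the counting is not given in the sources used here, so that reads from these pairs may not be separated. Per2 and Cry1 overlap no annotated gene.

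Promoter windows are shown because the members are grouped in textbooks by the elements that drive them, and because the data below separate them by time of day and by training. RefSeq entries (GRCm38.p6) were found for 4 of the 5 members, with separate starts for Per1, and Per2 is named only. The 250 bases before each start are printed in the direction of the gene, with matches to the searched motifs in capitals. Searched on both strands were the E-box CACGTG, the related E-prime box CACGTT, the cAMP response element TGACGTCA, its variant TGACGCAA, the core TGACG that both of these hold, the D-box TTATGTAA and the glucocorticoid response element. A match on the other strand appears as its reverse complement.
Per1, first start, chr11:69098699-69098948 (+): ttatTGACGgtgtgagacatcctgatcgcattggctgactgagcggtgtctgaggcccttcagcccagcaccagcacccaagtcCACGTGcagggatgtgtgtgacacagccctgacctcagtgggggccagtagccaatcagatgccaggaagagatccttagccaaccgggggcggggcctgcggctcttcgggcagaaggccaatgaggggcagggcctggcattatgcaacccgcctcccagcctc
Per1, second start, chr11:69099902-69100151 (+): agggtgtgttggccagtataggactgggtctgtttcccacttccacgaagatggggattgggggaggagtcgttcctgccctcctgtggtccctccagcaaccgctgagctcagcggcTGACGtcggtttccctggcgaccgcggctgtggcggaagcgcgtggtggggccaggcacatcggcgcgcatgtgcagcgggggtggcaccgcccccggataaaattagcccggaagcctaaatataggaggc
Per3, chr4:151044666-151044915 (−): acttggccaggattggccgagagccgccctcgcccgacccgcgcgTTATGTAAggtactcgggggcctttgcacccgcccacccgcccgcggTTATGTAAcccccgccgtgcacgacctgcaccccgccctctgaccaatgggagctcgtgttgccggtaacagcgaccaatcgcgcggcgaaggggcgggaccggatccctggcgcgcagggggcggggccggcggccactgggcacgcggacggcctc
Cry1, chr10:85185055-85185304 (−): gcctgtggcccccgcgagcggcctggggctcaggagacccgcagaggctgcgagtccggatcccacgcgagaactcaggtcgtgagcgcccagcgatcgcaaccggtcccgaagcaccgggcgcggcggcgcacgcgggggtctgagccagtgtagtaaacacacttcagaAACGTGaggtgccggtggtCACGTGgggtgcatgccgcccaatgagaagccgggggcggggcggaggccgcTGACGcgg
Cry2, chr2:92434070-92434319 (−): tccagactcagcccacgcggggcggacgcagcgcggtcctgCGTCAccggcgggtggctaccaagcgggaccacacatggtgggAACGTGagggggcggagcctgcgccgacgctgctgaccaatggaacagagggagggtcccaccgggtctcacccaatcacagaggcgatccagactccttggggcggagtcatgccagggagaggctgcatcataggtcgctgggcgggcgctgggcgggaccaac

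The E-box was found before the first Per1 start (bases 166 to 161 before it) and before Cry1 (60 to 55), an element in the windows of 6.02% of the 32817 RefSeq promoters. An E-prime box, present in 3.85% of promoters, was found before Cry1 (79 to 74) and Cry2 (166 to 161). The Per3 window held 2 D-boxes, at 205 to 198 and 158 to 151 bases before its start, an element found in 0.817% of promoters and bound by DBP, TEF, HLF and NFIL3. The core TGACG, in 17.7% of promoters, was found in the windows of both Per1 starts, of Cry1 and of Cry2. The full cAMP response element, its variant and the glucocorticoid response element had no match in these windows and occur in 1.55%, 0.439% and 0.387% of promoters. A match is only a string of letters in the window, and the counts do not tell apart which Per1 start was used.

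Per kilobase of exon, Cry2 was the most abundant member, with a mean of 21.9 CPM per kb over the 71 mice (17.7 to 26.2), followed by Per1 with 13.3 (7.81 to 23.6). Per2 had 4.78 CPM per kb (3.10 to 7.89) and Cry1 4.69 (3.07 to 6.59), and Per3 was lowest with 1.69 (1.09 to 2.31). The ranges of Cry2 and Per1 overlapped, as did those of Per2 and Cry1. Per1 moved most across the groups, with the highest group mean, 154 CPM in NC ad lib ORM+1 h, 2.28 times the lowest, 67.5 CPM in HFS TRF HC zt3. Per2 spanned 1.72 times (43.7 CPM in HFS TRF ORM+1 h to 25.4 CPM in NC ad lib HC zt3), Cry1 1.67 times (29.0 CPM in HFS TRF HC zt15 to 17.4 CPM in HFS TRF HC zt3) and Per3 1.64 times (21.4 CPM in HFS ad lib ORM+1 h to 13.1 CPM in NC ad lib HC zt3). Cry2 spanned 1.21 times, from 210 CPM in NC ad lib ORM+12 h to 173 CPM in HFS TRF HC zt3. When the 12 groups were ordered by mean, mice of neighbouring groups overlapped in all 11 steps for each gene. The 3 highest groups for Per1 and Per2 were the 3 ORM+1 h groups, while the 3 highest for Cry1 were the 3 HC zt15 groups.

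**Figure D1:**
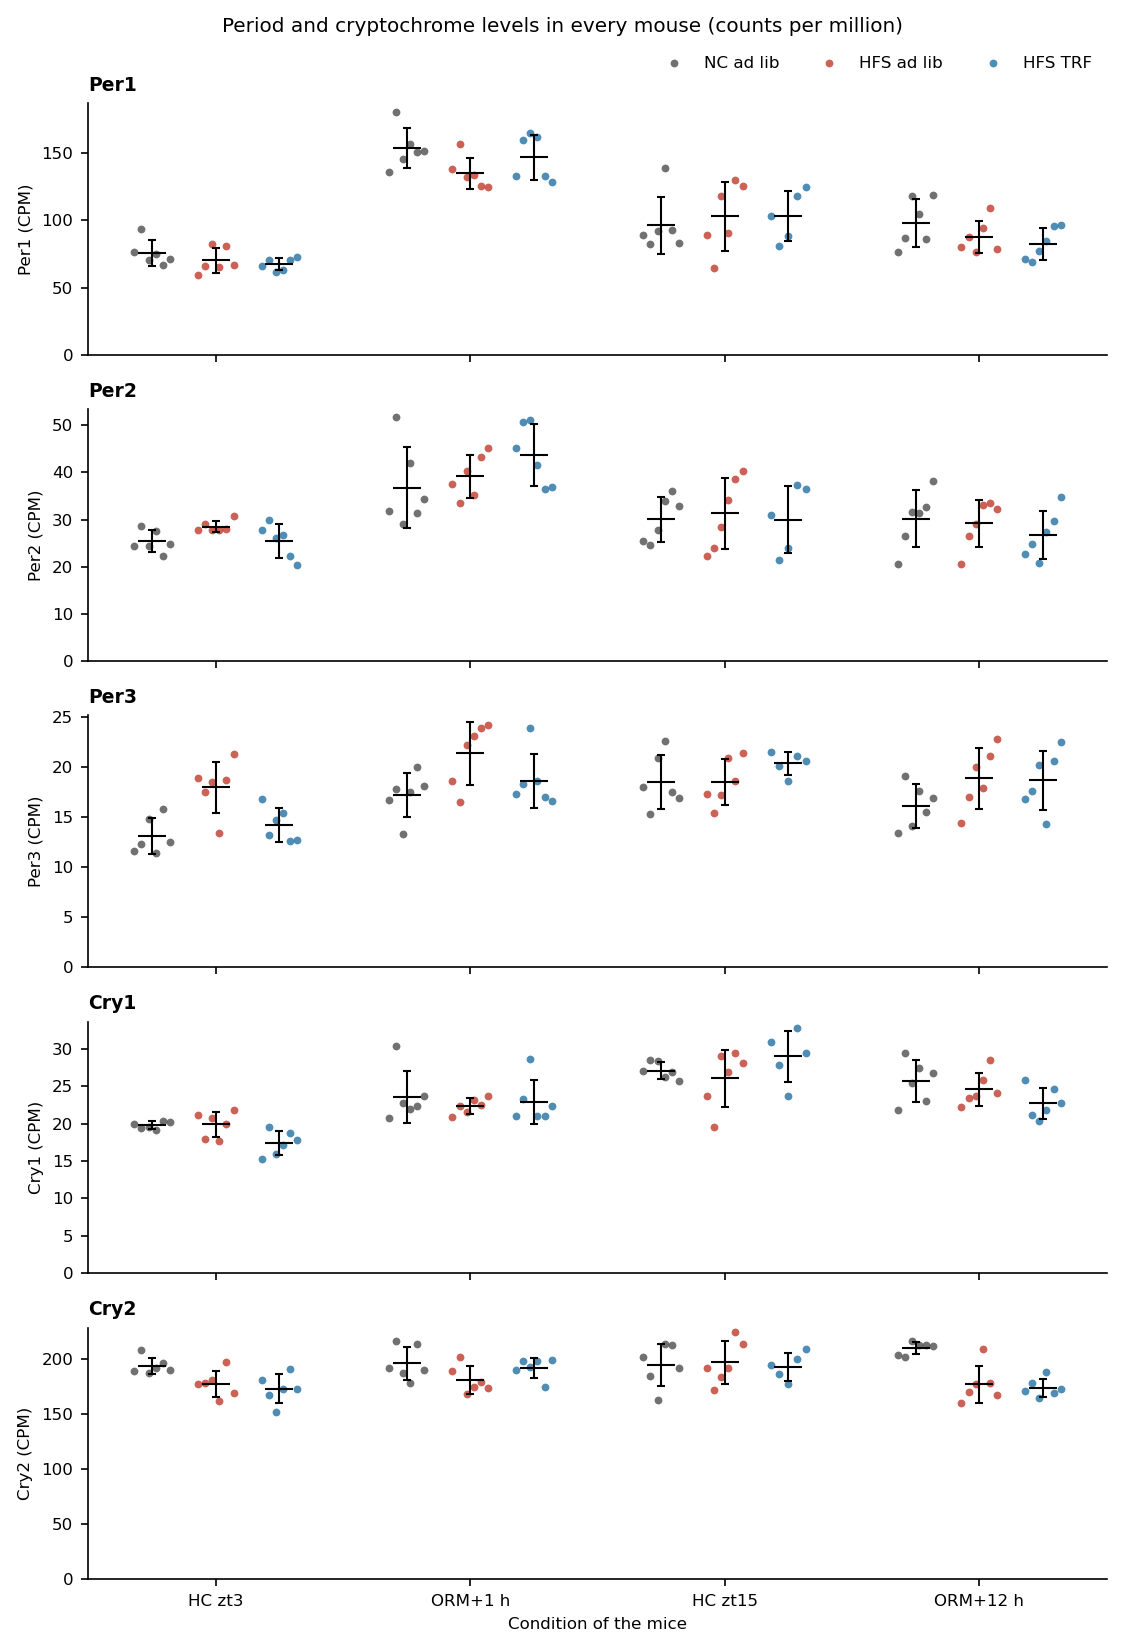
CPM (y axis, linear from 0) of each member in every mouse, by condition and diet; points are mice, the black bar is the mean and the whiskers 1 SD. Per1 lay at 59.8 to 93.8 CPM in all HC zt3 mice and at 125 CPM or more in all ORM+1 h mice, whereas Cry2 stayed between 152 and 225 CPM throughout.

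HC zt15 was compared with HC zt3 to ask how the repressors differ between the early dark and the early light phase under each diet. Cry1 and Per1 rose in all 3 diets and Per3 in NC ad lib and HFS TRF, while Per2 and Cry2 did not pass the test in any diet. In all, 8 of 15 comparisons were called, all of them higher at zt15. A gene was called where its p from the quasi-likelihood test of edgeR, adjusted by Benjamini-Hochberg over 30141 genes, was under 0.05 in 1 model of the 12 groups. Higher levels at zt15 were called for 5.18%, 3.88% and 5.95% of all genes in the 3 diets, and lower levels for 6.54%, 6.54% and 8.26%. The members called were 3 of 5, 2 of 5 and 3 of 5.

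Among the Period genes, which supply the limiting subunits of the repressor complex, Per1 in HFS TRF mice ran from 61.8 to 73.1 CPM at HC zt3 (median 68.1) and was 103, 81.4, 88.6, 118 and 125 CPM at HC zt15. The groups did not overlap, a pattern seen for 9.55% of genes in that comparison, and Per1 rose with a log2 fold change of 0.61 ± 0.13 (SE; adjusted p = 2.7e-04). In HFS ad lib mice the range was 59.8 to 82.8 CPM at HC zt3 (median 66.6) and 64.3 to 130 CPM at HC zt15 (median 104), with 5 of 6 zt15 mice above all zt3 mice and a log2 fold change of 0.55 ± 0.12 (adjusted p = 8.6e-04). In NC ad lib mice, Per1 ran from 67.0 to 93.8 CPM (median 73.1) and from 82.4 to 139 CPM (median 90.5). Only 1 of the 6 NC ad lib zt15 mice, replicate 4 at 139 CPM, was above all zt3 mice, and the log2 fold change of 0.35 ± 0.12 passed narrowly (adjusted p = 0.0487). That call was lost without HC zt3 replicate 1, 3, 4, 5 or 6 or HC zt15 replicate 3, 4 or 5, and without HC zt15 replicate 4 the log2 fold change was 0.22 (adjusted p = 0.241). It was also lost with the DESeq2 size factors in edgeR (adjusted p = 0.0506), with edgeR's filterByExpr (0.0542), in a model of only the groups compared (0.0807) and with the replicate number as a block (0.0504).

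Per3, the Period gene that is dispensable for rhythms, had HC zt15 group means of 18.5, 18.5 and 20.4 CPM in the 3 diets. In NC ad lib mice it ran from 11.4 to 15.8 CPM at HC zt3 (median 12.4) and from 15.3 to 22.6 CPM at HC zt15 (median 17.7), with 5 of 6 zt15 mice above all zt3 mice (log2 fold change 0.50 ± 0.11, adjusted p = 0.00104). In HFS TRF mice it ran from 12.6 to 16.8 CPM at HC zt3 (median 14) and was 21.5, 20.1, 18.6, 21.1 and 20.6 CPM at HC zt15. These groups did not overlap (log2 fold change 0.52 ± 0.12, adjusted p = 0.00105). HFS ad lib mice already ran from 13.4 to 21.3 CPM at HC zt3 (median 18.6) and from 15.4 to 21.4 CPM at HC zt15 (median 18.0), so that the groups largely overlapped (log2 fold change 0.03 ± 0.11, adjusted p = 0.934). For Per2, the partner of Per1 in the core loop, the log2 fold changes were 0.24 ± 0.14, 0.13 ± 0.14 and 0.24 ± 0.15 in the 3 diets (adjusted p = 0.273, 0.626 and 0.300). The zt15 mice of Per2 were spread widely, as in HFS ad lib, where they ran from 22.3 to 40.3 CPM around zt3 mice at 27.7 to 30.8 CPM.

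Among the cryptochromes, Cry1 separated the times of day most clearly. In NC ad lib mice it ran from 19.1 to 20.4 CPM at HC zt3 (median 19.7) and from 25.7 to 28.5 CPM at HC zt15 (median 27.0), and the groups did not overlap, as for 5.85% of genes (log2 fold change 0.46 ± 0.09, adjusted p = 5.5e-05). In HFS TRF mice it ran from 15.3 to 19.5 CPM at HC zt3 (median 17.5) and was 31.0, 27.9, 23.7, 32.8 and 29.5 CPM at HC zt15. Again no mice overlapped, and this was the largest change of Cry1 between the times (log2 fold change 0.74 ± 0.09, adjusted p = 1.4e-09). In HFS ad lib mice the range was 17.7 to 21.8 CPM at HC zt3 (median 20.4) and 19.6 to 29.4 CPM at HC zt15 (median 27.5), with 5 of 6 zt15 mice above all zt3 mice (log2 fold change 0.39 ± 0.09, adjusted p = 6.5e-04). Cry2 had log2 fold changes of 0.01 ± 0.06, 0.15 ± 0.06 and 0.16 ± 0.06 (adjusted p = 0.995, 0.102 and 0.0778). Its HFS TRF value passed in 5 of the 9 other models run (adjusted p from 0.0335 to 0.172 over the 9) and without HC zt3 replicate 5 or HC zt15 replicate 3 (0.0384 and 0.0457), and its HFS ad lib value passed without HC zt3 replicate 5 or HC zt15 replicate 2 (0.0480 and 0.0430).

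Other clock genes moved between the times as well. Of 9 genes of the activators and the Rev-erb and Ror loop, 4, 3 and 4 rose and 2, 1 and 2 fell in the 3 diets, with a median log2 fold change of 0.06, 0.26 and 0.14 beside 0.00, -0.01 and 0.00 over all genes. Bmal1, the partner of CLOCK, fell in all 3 diets, by 0.56, 0.52 and 0.60 on the log2 scale (adjusted p = 3.0e-05, 9.5e-05 and 1.9e-05). Of 7 E-box target repressors and clock outputs, 4, 5 and 4 rose and none fell, among them Ciart, a further clock repressor (log2 fold change 0.88, 0.74 and 0.98, adjusted p = 5.7e-06, 1.8e-04 and 1.2e-06). Dbp, which activates through the D-box, rose by 0.95, 0.52 and 1.03 (adjusted p = 8.9e-06, 0.0250 and 3.6e-06). Of 13 partners of PER and CRY proteins (kinases, ubiquitin ligases and cofactors), only Usp7, a deubiquitinase, was called, lower in HFS ad lib (log2 fold change -0.19, adjusted p = 0.0270), where lower levels were called for 6.54% of all genes. Of 14 activity-induced early genes, 4, 5 and 11 rose and none fell, and of 10 glucocorticoid-induced genes 5 rose and none fell in each diet.

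Markers of other cell types moved with the same comparison. For astrocytes the summed level (6 genes) was 339 to 512 CPM at HC zt3 and 401 to 1260 CPM at HC zt15 in NC ad lib, 265 to 1000 and 519 to 1254 CPM in HFS ad lib, and 238 to 709 and 834 to 1210 CPM in HFS TRF, and 6, 1 and 5 of the 6 markers rose. No astrocyte marker was at 0 in any mouse. With an astrocyte marker score as a covariate, added after seeing the data, Cry1 was called in all 3 diets with log2 fold changes of 0.40, 0.35 and 0.67, and Per1 in HFS ad lib and HFS TRF with 0.56 and 0.62, while Per1 in NC ad lib was not (0.36, adjusted p = 0.110). Per2, which did not pass, moved by more than 1.5 times under this covariate, to 0.43, 0.26 and 0.46 (adjusted p = 0.0665, 0.259 and 0.0617). Markers of myelinating oligodendrocytes did not overlap in HFS ad lib, at 683 to 791 CPM at HC zt3 and 815 to 934 CPM at HC zt15, and ran from 584 to 785 and 545 to 984 CPM in NC ad lib and from 590 to 812 and 697 to 913 CPM in HFS TRF, and 0, 0 and 1 of 6 rose. Of 5 microglial markers, 3 rose in HFS ad lib, where their sum ran from 41.1 to 62.4 and from 43.2 to 328 CPM, and none was called in the other diets. Of 6 markers of hippocampal principal cells, 2, 1 and 0 rose and 2, 1 and 1 fell, and of 6 neuronal markers none was called. The part of the oligodendrocyte, microglial and principal cell markers in these results was not tested.

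**Figure D2:**
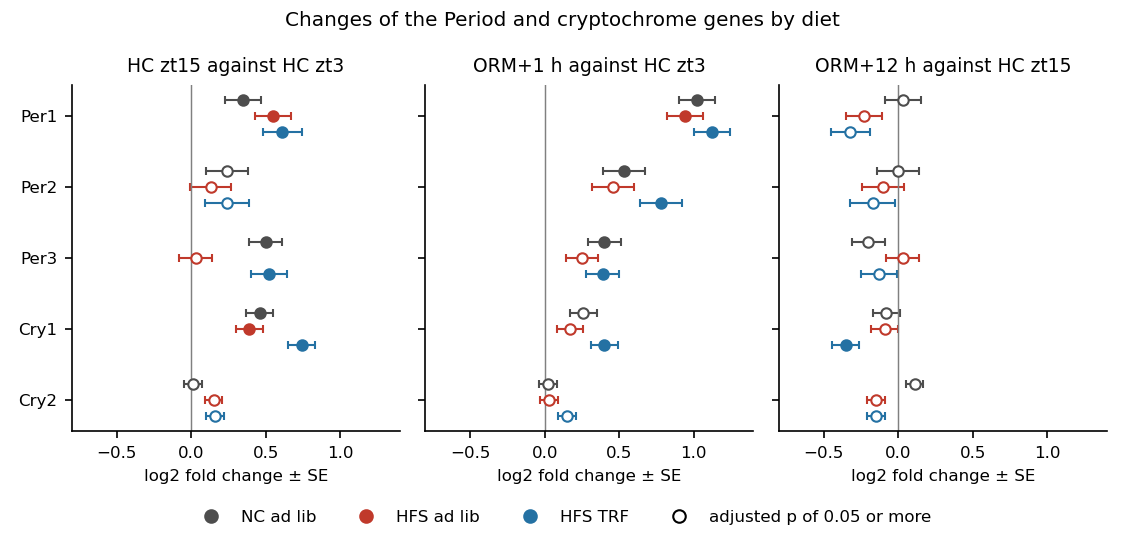
Log2 fold change with its SE (x axis) of each member (y axis) in 3 comparisons, 1 colour per diet; filled circles have an adjusted p under 0.05 and open circles do not. The filled circles of the left and middle panels all lie above 0, and in the right panel Cry1 in HFS TRF is the only filled circle, at -0.35.

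ORM+1 h was compared with HC zt3 to ask how the repressors differ 1 h after training. No group was exposed to the arena without learning, so learning and the exposure itself cannot be told apart. Per1 rose in every diet, by 2.03, 1.92 and 2.18 times, and it did so without overlap between trained and home cage mice. The rise of Per2 and of Per3 passed the test in all diets except HFS ad lib, and that of Cry1 only in HFS TRF. Per2 in HFS ad lib and Cry1 in NC ad lib were also higher in every trained mouse than in every home cage mouse, but did not pass. Cry2 was not called in any diet. In all, 8 of 15 comparisons were called, all higher, namely 3, 1 and 4 of 5 members in the 3 diets. Higher levels after training were called for 4.03%, 0.740% and 2.24% of all genes. These comparisons share their HC zt3 mice with those of the time of day.

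Per1 ran from 67.0 to 93.8 CPM at HC zt3 (median 73.1) and from 136 to 181 CPM at ORM+1 h (median 151) in NC ad lib mice. Every trained mouse was above every home cage mouse, a separation seen for 4.67% of genes (log2 fold change 1.02 ± 0.12, adjusted p = 1.3e-08). In HFS ad lib mice the ranges were 59.8 to 82.8 CPM (median 66.6) and 125 to 157 CPM (median 133), again without overlap, as for 1.34% of genes (log2 fold change 0.94 ± 0.12, adjusted p = 2.1e-07). In HFS TRF mice they were 61.8 to 73.1 CPM (median 68.1) and 129 to 165 CPM (median 147), also apart, as for 3.52% of genes (log2 fold change 1.12 ± 0.12, adjusted p = 6.7e-10). Over all other models and each mouse left out in turn, the log2 fold change of Per1 stayed within 0.97 to 1.09, 0.89 to 0.99 and 1.09 to 1.16. The response of Per1 did not pass a test of a difference between diets (log2 difference -0.08 ± 0.17 for HFS ad lib minus NC ad lib, 0.10 ± 0.17 for HFS TRF minus NC ad lib and 0.18 ± 0.17 for HFS TRF minus HFS ad lib, adjusted p = 1.000 in each).

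Per2 ran from 22.3 to 28.7 CPM at HC zt3 (median 24.7) and from 29.1 to 51.8 CPM at ORM+1 h (median 33.1) in NC ad lib mice, without overlap (log2 fold change 0.53 ± 0.14, adjusted p = 0.0101). The call was lost without ORM+1 h replicate 2, the mouse at 51.8 CPM (0.41, adjusted p = 0.0805), and the value was 0.80 with the astrocyte marker score as a covariate. In HFS TRF mice Per2 ran from 20.3 to 29.9 CPM (median 26.4) and from 36.4 to 51.2 CPM (median 43.4), again apart (log2 fold change 0.78 ± 0.14, adjusted p = 1.9e-04). In HFS ad lib mice it ran from 27.7 to 30.8 CPM (median 27.9) and from 33.6 to 45.1 CPM (median 38.9). These mice did not overlap either, but the value did not pass (log2 fold change 0.46 ± 0.14, adjusted p = 0.0896). It passed with the DESeq2 Wald test (0.0293), in a model of only the groups compared (0.00661), with the replicate number within each experiment (0.00411) and with the astrocyte marker score as a covariate (0.0133). The difference in the response of Per2 between HFS TRF and HFS ad lib was 0.32 ± 0.20 on the log2 scale and did not pass (adjusted p = 0.994).

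Per3 ran from 11.4 to 15.8 CPM at HC zt3 and from 13.3 to 20 CPM at ORM+1 h in NC ad lib mice, with 5 of 6 trained mice above all home cage mice (log2 fold change 0.40 ± 0.11, adjusted p = 0.0203). That call was lost without HC zt3 replicate 1 or 4 or ORM+1 h replicate 5 or 6 (adjusted p from 0.0583 to 0.0701). In HFS TRF mice the ranges were 12.6 to 16.8 and 16.6 to 23.9 CPM, with 5 of 6 trained mice higher (log2 fold change 0.39 ± 0.11, adjusted p = 0.0448), and the call was lost without any of 8 of the 12 mice, most of all without ORM+1 h replicate 3 (0.30, adjusted p = 0.225; the others were HC zt3 replicates 2 to 6 and ORM+1 h replicates 2 and 4). In HFS ad lib mice they were 13.4 to 21.3 and 16.5 to 24.2 CPM, with 4 of 6 trained mice above all home cage mice (log2 fold change 0.25 ± 0.11, adjusted p = 0.313). With the astrocyte marker score as a covariate, Per3 no longer passed in NC ad lib (adjusted p = 0.0629) or HFS TRF (adjusted p = 0.0504).

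Cry1 ran from 15.3 to 19.5 CPM at HC zt3 and from 21.0 to 28.6 CPM at ORM+1 h in HFS TRF mice (medians 17.5 and 21.7), without overlap (log2 fold change 0.40 ± 0.09, adjusted p = 0.00252). In NC ad lib mice it ran from 19.1 to 20.4 and from 20.7 to 30.4 CPM (medians 19.7 and 22.6). The groups were apart there too, but the value did not pass (log2 fold change 0.26 ± 0.09, adjusted p = 0.0582), except with the DESeq2 Wald test (adjusted p = 0.0353). In HFS ad lib mice 4 of 6 trained mice were above all home cage mice (log2 fold change 0.17 ± 0.09, adjusted p = 0.369). Cry2, the most abundant member, had log2 fold changes of 0.02 ± 0.06, 0.03 ± 0.06 and 0.15 ± 0.06 (adjusted p = 0.954, 0.936 and 0.205). The 95% intervals of these changes were -0.10 to 0.14, -0.09 to 0.15 and 0.03 to 0.27.

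The early genes rose beside Per1. Of the 14, the number that rose was 14, 13 and 14, with medians of 1.69, 1.39 and 1.71, among them Egr4, a transcription factor, with log2 fold changes of 1.90, 1.77 and 1.81 (adjusted p = 2.7e-14, 6.2e-13 and 2.2e-13). The log2 fold change of Per1 in NC ad lib, 1.02, was below that of every one of these 14 genes (1.19 to 3.91), and in the other diets it lay within their range (0.63 to 3.37 in HFS ad lib and 0.95 to 3.70 in HFS TRF). Of the 9 activators and Rev-erb and Ror genes, 2, 0 and 1 rose and none fell. Rorb, an orphan nuclear receptor, rose by 1.34 in NC ad lib (adjusted p = 4.0e-04) and 1.17 in HFS TRF (adjusted p = 0.00472) and had 0.66 in HFS ad lib (adjusted p = 0.241). Of the 7 E-box target repressors and clock outputs, 3, 1 and 2 rose. Nfil3, counted here as an output that represses through the D-box, was called in all 3 diets (log2 fold change 1.08, 1.27 and 1.36, adjusted p = 1.2e-05, 7.5e-07 and 5.2e-08). It was the only gene of this list called in HFS ad lib. Dbp had 0.28, -0.14 and -0.01 (adjusted p = 0.366, 0.818 and 1.00). None of the 13 partners of PER and CRY was called in any diet. Of the 10 glucocorticoid-induced genes 4, 3 and 4 rose, among them Errfi1, a feedback inhibitor of EGF receptors that also responds to activity (log2 fold change 1.06, 0.96 and 1.06, adjusted p = 7.1e-13, 4.7e-11 and 1.0e-12).

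Astrocyte markers moved here too, from 339 to 512 CPM at HC zt3 to 844 to 1473 CPM at ORM+1 h in NC ad lib, from 265 to 1000 to 519 to 1275 CPM in HFS ad lib and from 238 to 709 to 608 to 1162 CPM in HFS TRF. Of the 6 markers, 6, 0 and 4 rose. With the astrocyte marker score as a covariate the log2 fold changes of Per1 were 1.03, 0.95 and 1.13 (adjusted p = 4.1e-06, 1.1e-06 and 5.2e-08). Cry1 was called in HFS TRF with the same covariate (0.34, adjusted p = 0.0478). Microglial markers were lower without overlap in HFS TRF, at 48.9 to 55.4 CPM at HC zt3 and 31.5 to 43.7 CPM at ORM+1 h, and ran from 41.9 to 49.9 and 34.2 to 42.4 CPM in NC ad lib and from 41.1 to 62.4 and 35.7 to 69.9 CPM in HFS ad lib, with none of 5 called in any diet. Neuronal markers ran from 8309 to 9145 and 7386 to 8439 CPM in NC ad lib, from 8413 to 9461 and 7720 to 9591 CPM in HFS ad lib and from 7886 to 9117 and 7522 to 8429 CPM in HFS TRF, and 1, 0 and 0 of 6 fell. Lower levels were called for 1.70% of all genes in NC ad lib. No marker of myelinating oligodendrocytes or hippocampal principal cells was called. The part of the microglial and neuronal markers in these results was not tested.

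**Figure D3:**
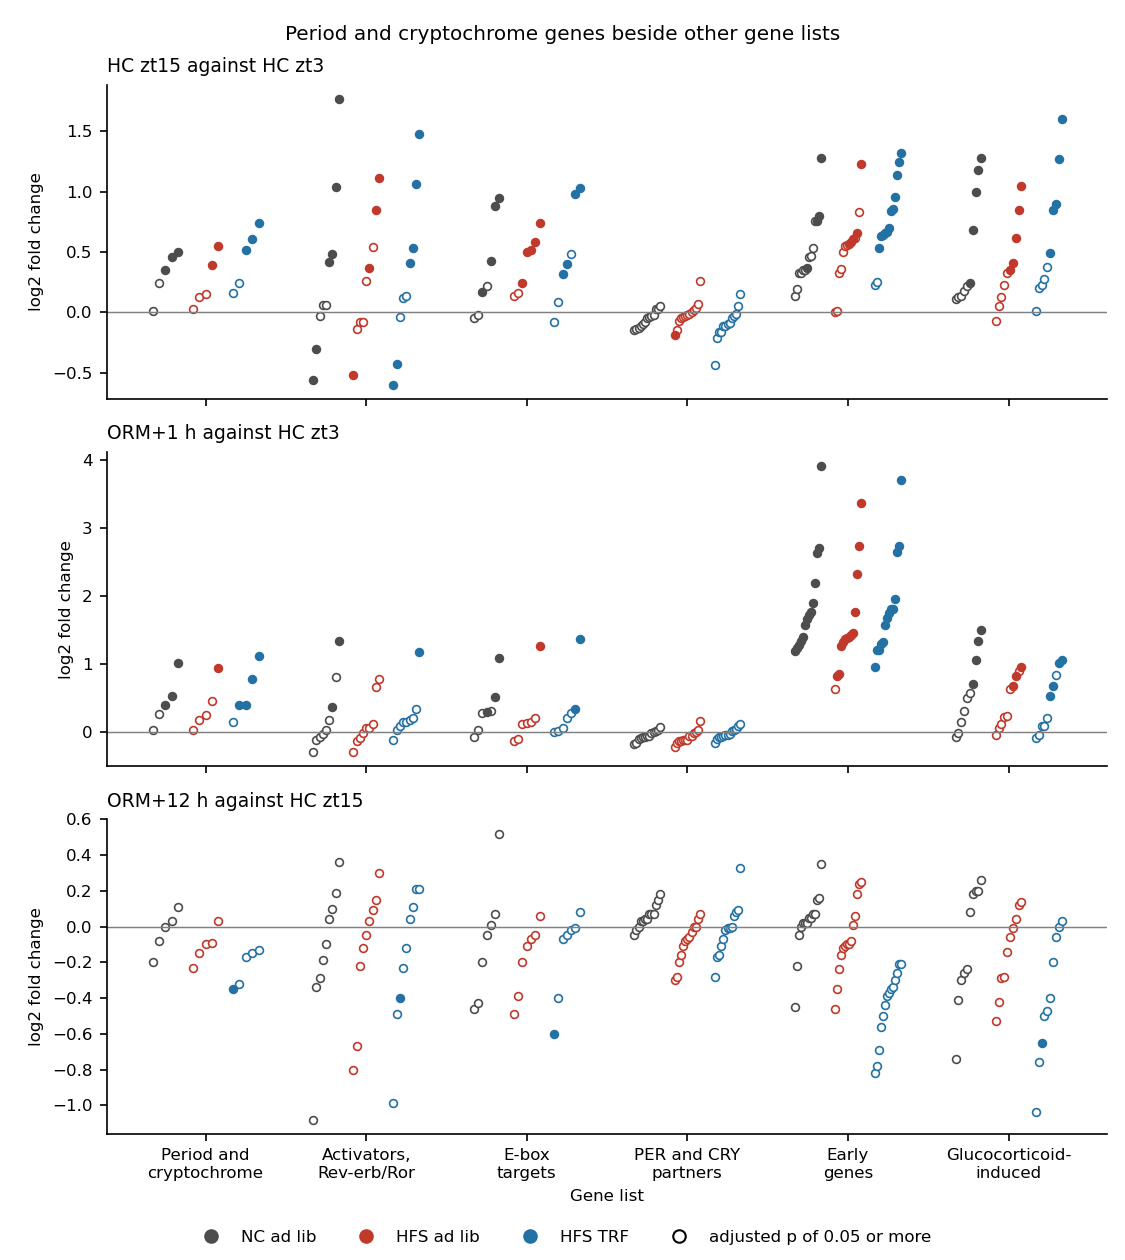
Log2 fold change (y axis) of each gene in the Period and cryptochrome set and 5 other lists (x axis), by diet and comparison; filled points have an adjusted p under 0.05. At ORM+1 h the early genes reach 3.91 while the partners of PER and CRY stay between -0.23 and 0.16, and in the lowest panel most points are open.

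ORM+12 h was compared with HC zt15 to ask what differs 12 h after training. Among the members, only Cry1 in HFS TRF passed the test, and it was lower in the trained mice. This was 1 of 15 comparisons, in a setting where lower levels were called for 0.889% of genes in HFS TRF, 0.0664% in NC ad lib and 0.109% in HFS ad lib. Cry1 was 31.0, 27.9, 23.7, 32.8 and 29.5 CPM at HC zt15 and ran from 20.3 to 25.8 CPM at ORM+12 h (median 22.2). The groups overlapped in the zt15 mouse at 23.7 CPM, and 4 of 6 trained mice were below all home cage mice (log2 fold change -0.35 ± 0.09, adjusted p = 0.0250). The call was lost without HC zt15 replicate 1 or 4 or ORM+12 h replicate 3 (adjusted p = 0.101, 0.102 and 0.0760), in a model of only the groups compared (0.0812), and with the choroid plexus or the astrocyte score as a covariate (0.0589 and 0.0895). Under both other diets the log2 fold change of Cry1 was -0.08 ± 0.09 and -0.09 ± 0.09 (adjusted p = 0.698 and 0.656).

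Markers of other cell types separated the same HFS TRF mice. Astrocyte markers summed to 834 to 1210 CPM at HC zt15 and 585 to 821 CPM at ORM+12 h, with none of 6 called. Myelinating oligodendrocyte markers were 697 to 913 and 960 to 1149 CPM, with 1 of 6 called higher, and hippocampal principal cell markers 842 to 995 and 1002 to 1115 CPM, also with 1 of 6 called higher. Higher levels were called for 1.57% of all genes in that comparison. None of these 3 sums overlapped between the groups. Beyond the astrocyte and choroid plexus covariates above, the part of these markers in the result for Cry1 was not tested.

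Per1, at or above 125 CPM in every mouse 1 h after training, overlapped the home cage mice at 12 h. It ran from 76.4 to 119 CPM in NC ad lib, 76.8 to 109 CPM in HFS ad lib and 69.1 to 97.0 CPM in HFS TRF ORM+12 h mice, beside 82.4 to 139, 64.3 to 130 and 81.4 to 125 CPM at HC zt15. The log2 fold changes of 0.03 ± 0.12, -0.23 ± 0.12 and -0.32 ± 0.13 did not pass (adjusted p = 0.997, 0.324 and 0.134). For Per2 they were 0.00 ± 0.14, -0.10 ± 0.14 and -0.17 ± 0.15, and for Per3 -0.20 ± 0.11, 0.03 ± 0.11 and -0.13 ± 0.12, with adjusted p of 0.377 or more. Cry2 had 0.11 ± 0.06, -0.15 ± 0.06 and -0.15 ± 0.06 (adjusted p = 0.377, 0.223 and 0.154). Of the other clock genes, Nr1d2 (log2 fold change -0.40, adjusted p = 0.0236), a Rev-erb repressor of Bmal1, and Ciart (-0.60, adjusted p = 0.0250) fell in HFS TRF and no other gene of those lists was called in any diet. None of the 14 early genes was called, with medians of 0.03, -0.10 and -0.38, and of the glucocorticoid-induced genes only Sgk1, a kinase, fell in HFS TRF (-0.65, adjusted p = 0.0194).

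Diets were compared at each condition. Of 60 comparisons of a member between diets 2 were called, both Cry2 at ORM+12 h, lower under the high-fat high-sugar diet than under chow. Lower levels were called for 1.51% of genes in HFS ad lib against NC ad lib and 5.31% in HFS TRF against NC ad lib at that condition. Cry2 ran from 202 to 216 CPM in NC ad lib (median 213), from 160 to 209 CPM in HFS ad lib (median 174) and from 165 to 188 CPM in HFS TRF (median 172). All 6 HFS TRF mice were below all NC ad lib mice, a separation seen for 2.18% of genes, and so were 5 of 6 HFS ad lib mice. The log2 fold change was -0.27 ± 0.06 for HFS TRF (adjusted p = 0.00232), called in all 10 other models and with each mouse left out, and -0.24 ± 0.06 for HFS ad lib (adjusted p = 0.0232). The HFS ad lib call was lost without NC ad lib replicate 3 or 4 or HFS ad lib replicate 1, 2, 3 or 6 (adjusted p from 0.0513 to 0.0712), in a model of only the groups compared (0.144) and with the choroid plexus score as a covariate (log2 fold change -0.21, with an adjusted p at the threshold of 0.05). HFS TRF against HFS ad lib, where lower levels were called for 0.00664% of genes, did not pass (log2 fold change -0.03 ± 0.06, adjusted p = 0.956; 95% interval -0.15 to 0.09).

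Choroid plexus markers summed to 264 to 3736 CPM in NC ad lib ORM+12 h mice (median 379), 185 to 16737 CPM in HFS ad lib (median 5441) and 197 to 10578 CPM in HFS TRF (median 408). No choroid plexus marker was at 0 in any mouse. Myelinating oligodendrocyte markers were 642 to 924 CPM in NC ad lib, 544 to 896 CPM in HFS ad lib and 960 to 1149 CPM in HFS TRF at ORM+12 h, so that HFS TRF mice did not overlap the others. Of the 6 markers, 4 were called higher in HFS TRF than in NC ad lib, as were 3.47% of all genes, and none in HFS ad lib. Their part in the difference of Cry2 was not tested.

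In home cage mice no diet difference of Cry2 passed. At HC zt3 it ran from 187 to 208 CPM in NC ad lib (mean 194), 162 to 197 CPM in HFS ad lib (mean 177) and 152 to 191 CPM in HFS TRF (mean 173). The log2 fold changes there had the same sign as at ORM+12 h, with -0.13 ± 0.06 for HFS ad lib (unadjusted p = 0.0387, adjusted 0.588; 95% interval -0.25 to -0.01) and -0.16 ± 0.06 for HFS TRF (unadjusted p = 0.00896, adjusted 1.00; 95% interval -0.28 to -0.04). At HC zt15, in home cage mice of the same experiment, Cry2 ran from 163 to 214, 172 to 225 and 177 to 209 CPM and differed by at most 0.02 on the log2 scale between diets. In ORM+1 h mice it ran from 178 to 216, 168 to 202 and 175 to 199 CPM. The means there were 196, 181 and 192 CPM, and no gene was called between diets. Counted by library total in place of TMM, the mean of Cry2 in NC ad lib ORM+12 h was 202 in place of 210 CPM, the only 1 of 60 levels to move by more than its SD. Among the other clock genes at ORM+12 h, Bmal1 was lower in HFS TRF than in NC ad lib (log2 fold change -0.41, adjusted p = 0.00522), and Nono, a cofactor of PER, was lower under HFS ad lib (-0.24, adjusted p = 0.0480) and HFS TRF (-0.25, adjusted p = 0.0154).

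Per3 at HC zt3 had the largest diet difference that did not pass. It ran from 11.4 to 15.8 CPM in NC ad lib (median 12.4), 13.4 to 21.3 CPM in HFS ad lib (median 18.6) and 12.6 to 16.8 CPM in HFS TRF (median 14), and 5 of 6 HFS ad lib mice were above all NC ad lib mice. The log2 fold change of HFS ad lib against NC ad lib was 0.47 ± 0.11, with an unadjusted p of 1.2e-04 and an adjusted p of 0.588. In this comparison no gene was called, and 8.38% of genes had an unadjusted p under 0.05. HFS TRF against HFS ad lib had -0.34 ± 0.11 (adjusted p = 0.847), and HFS TRF against NC ad lib 0.13 ± 0.11 (adjusted p = 1.00).

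Interaction terms of the same model asked whether a change depended on the diet. None of the 45 interactions of a member was called by edgeR or by DESeq2, and 9 had an unadjusted p under 0.05. Of all genes, 0.106% were called in HFS ad lib minus NC ad lib at ORM+12 h and 0% in the other interactions. Unadjusted p under 0.05 were found for 9.38%, 8.41% and 6.74% of genes for the time of day (HFS ad lib minus NC ad lib, HFS TRF minus HFS ad lib, HFS TRF minus NC ad lib), for 6.25%, 5.59% and 5.24% at ORM+1 h and for 18.7%, 14.1% and 13.5% at ORM+12 h. For the time of day, the members with such a p were Per3 in HFS ad lib minus NC ad lib (log2 difference -0.47 ± 0.16, adjusted p = 0.404) and in HFS TRF minus HFS ad lib (0.48 ± 0.16, adjusted p = 0.461), and Cry1 in HFS TRF minus HFS ad lib (0.34 ± 0.12, adjusted p = 0.461) and minus NC ad lib (0.28 ± 0.12, adjusted p = 0.662). For ORM+12 h against HC zt15, Cry2 had -0.26 ± 0.09 in HFS ad lib minus NC ad lib (adjusted p = 0.0960) and -0.26 ± 0.09 in HFS TRF minus NC ad lib (adjusted p = 0.177). The first of these was called, among all settings run, without HFS ad lib ORM+12 h replicate 4 (log2 difference -0.31, adjusted p = 0.0317) and with the replicate number within each condition as a block (-0.26, adjusted p = 0.0421), and with the choroid plexus score it was -0.18 (adjusted p = 0.347). Cry1 in HFS TRF minus HFS ad lib (-0.27 ± 0.12, adjusted p = 0.306) and minus NC ad lib (-0.27 ± 0.12, adjusted p = 0.315) and Per1 in HFS TRF minus NC ad lib (-0.35 ± 0.18, adjusted p = 0.369) made up the rest. For ORM+1 h against HC zt3, no member had an unadjusted p under 0.05 in any of the 15 interactions.

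Most pairs of members also varied together between mice of the same group. After the group mean of log2 CPM was taken off, Per1 and Per2 had a Pearson r of 0.60 and a Spearman rho of 0.57 over 71 mice (2-sided permutation test, p = 2e-05 for each, adjusted over 40 relations 4e-04). The value was 0.59 without the 2 mice farthest from the median of Per1, 0.29 among the 36 mice of the zt3 groups and 0.72 among the 35 mice of the zt15 groups. Per1 and Cry2 had an r of 0.55 and a rho of 0.51 (permutation p = 3e-05 and 5e-05, adjusted 4e-04 and 7e-04), with r of 0.49 without the 2 farthest mice and 0.55 and 0.57 within the experiments. Per3 and Cry2 had an r and a rho of 0.06 (permutation p = 0.637, adjusted 0.772 and 0.739). The other 7 pairs had r between 0.24 (Per1 and Per3) and 0.52 (Per1 and Cry1). Per1 and Per3 did not pass (adjusted permutation p = 0.112 for r and 0.236 for rho). Their r was -0.08 in the zt3 groups and 0.43 in the zt15 groups. Per2 and Cry2 had an r of 0.39, but 0.00 in the zt3 groups and 0.61 in the zt15 groups. The rest of these pairs had a positive r in both experiments. All values share libraries and their scaling. The permutations treat the mice of a group as exchangeable, whereas in the zt15 groups Per1 and Per2 both differed with the replicate number in the labels (edgeR's quasi-likelihood F test, adjusted p = 0.00562 and 1.6e-05). With the number within each experiment taken off as well, a step added after seeing the data and with no test, the r of Per1 and Per2 was 0.34 (0.11 and 0.55 within the experiments) and that of Per1 and Cry2 0.48 (0.62 and 0.42). For Per2 and Cry2 it was 0.19 (-0.09 and 0.49), and for Per1 and Per3 0.15 (0.00 and 0.26).

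The mean z score of the 14 early genes followed Per1 within groups with an r of 0.77 and a rho of 0.74 (permutation p = 1e-05 for each, the smallest that 100000 permutations can give, adjusted 4e-04), 0.72 without the 2 farthest mice, 0.59 in the zt3 groups and 0.85 in the zt15 groups. For Per2 the r with this score was 0.41 and the rho 0.39 (permutation p = 0.00104 and 0.00241, adjusted 0.00416 and 0.00837), with r of 0.38 without the 2 farthest mice, but -0.09 in the zt3 groups and 0.65 in the zt15 groups. Hence the relation of Per2 to the early genes within groups did not hold in the first experiment. With the replicate number taken off, the r with the early gene score was 0.76 for Per1 (0.72 and 0.81 within the experiments) and 0.11 for Per2 (-0.07 and 0.30). Cry1 had an r of 0.42 and a rho of 0.41 with this score (adjusted permutation p = 0.00324 and 0.00480). Its r was 0.26 in the zt3 groups and 0.53 in the zt15 groups. Taking off the replicate number gave 0.39 for Cry1 (0.23 and 0.51). Per3 and Cry2 had r of 0.29 and 0.31 (adjusted permutation p = 0.0551 and 0.0485). Their rho was 0.25 and 0.27 (adjusted permutation p = 0.111 and 0.0883). The score of the 10 glucocorticoid-induced genes had an r of 0.02 and a rho of 0.07 with Per1. The permutation p was 0.859 and 0.565 (adjusted 0.955 and 0.729). With Per2 they were -0.08 and -0.08 (permutation p = 0.532 and 0.510, adjusted 0.680 and 0.681). The sign of r differed between the experiments. It was 0.23 for Per1 and 0.16 for Per2 in the zt3 groups, but -0.13 and -0.29 in the zt15 groups. With the replicate number taken off, which was not tested, r was 0.18 for Per1 (0.26 and 0.14 within the experiments). For Per2 it was then 0.25 (0.28 and 0.19). The choroid plexus score had an r of -0.37 and a rho of -0.38 with Cry2 (permutation p = 0.00423 and 0.00373, adjusted 0.0113 and 0.0107), with r of -0.36 without the 2 farthest mice, -0.65 in the zt3 groups and -0.12 in the zt15 groups.

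**Figure D4:**
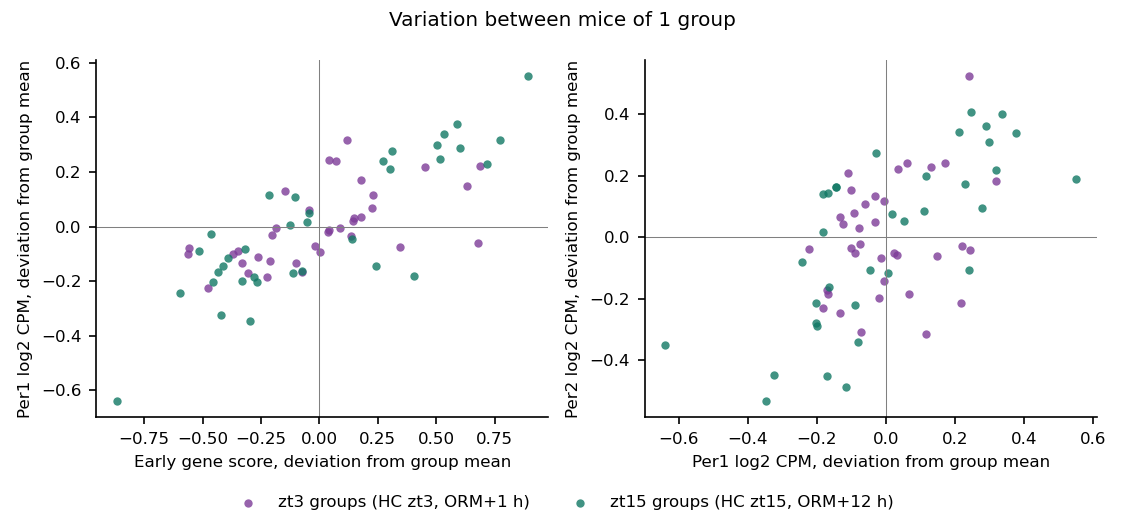
Deviation of each mouse from its group mean, 1 point per mouse (71 mice), for Per1 log2 CPM against the early gene score (left) and Per2 against Per1 log2 CPM (right). The points rise together on the left in both experiments (r of 0.59 and 0.85) and on the right more in the zt15 groups (0.72) than in the zt3 groups (0.29); with the replicate number taken off, the values on the right are 0.55 and 0.11.

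Across all 71 mice, groups included, the genes whose log2 CPM was most like a member included genes of the early gene list for Per1 and Per2 but not for the other members, among 14698 genes with a mean of at least 1 CPM. For Per1 they were Junb, Egr1 and Nr4a1 (Pearson r 0.94 in each, Spearman rho 0.93, 0.89 and 0.92). For Per2 they were Nr4a3 (r 0.86, rho 0.87), an orphan nuclear receptor, Kdm7a (0.85 and 0.83), a histone demethylase, and Nr4a2 (0.82 and 0.84). Per3 was most like Eif4e3, Ankrd13c and Eif4g2 (r 0.72, 0.70 and 0.69), Cry1 like Mxi1, Lrrc58 and Luc7l2 (0.77, 0.76 and 0.76) and Cry2 like Agfg2 and Hgs (0.73 and 0.72). These values describe a pattern shared across conditions.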

How the data were processed

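Hippocampal mRNA captured by pS6-TRAP was sequenced from 71 mice in 12 groups. The authors deposited raw read counts per gene for GRCm39 (the labels also list mm9), made per the labels with Trim Galore 0.6.7, cutadapt 3.4, HISAT2 2.2.0 and featureCounts of Subread 2.0.3. Total counts of 34698914 to 62758570 per mouse set the counting precision.

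Counts were scaled by TMM and tested with the quasi-likelihood test of edgeR 4.0.16 (R 4.3.3) in 1 model of all 12 groups. Genes with at least 10 counts in total entered (30141 of 57010). Adjusted p are Benjamini-Hochberg values over all genes tested in a contrast, with a threshold of 0.05. Changes of time of day, training and diet and their interactions were contrasts of that model. The CPM shown are TMM-scaled, and log2 CPM used a prior count of 2. Correlations within groups used 100000 permutations of mice within groups. No pair of mice in a group had near-identical counts. Alternatives were the Wald test of DESeq2 1.42.0, its size factors in edgeR, a minimum of 1 count, filterByExpr, a model of the compared groups alone, a block for the replicate number and each mouse left out. Marker scores as covariates and the replicate number within each experiment were added after seeing the data. On simulated data for NC ad lib HC zt15 against HC zt3 (29371 genes), 27, 39, 50 and 50 of 50 genes changed by 1.3, 1.5, 2 and 3 times were recovered, with 2 false calls.

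The members and gene lists were chosen with earlier results of these data known. From each other list, up to 2 genes that rose and up to 2 that fell with the smallest adjusted p in a contrast were named, with their values in the other diets, and for each member the 3 genes most like it, of which 1 is not reported here. Dbp at ORM+1 h was named beside Nfil3 after its values were seen.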

Additional observations from a re-analysis of the deposited data

Results flagged for a closer look

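In 60 groups of mice (5 genes in 12 groups), 6 held a mouse far from the others by Dixon's test, which chance gives for about 1 in 20 groups. For Per1 these were NC ad lib HC zt3 replicate 2, at 93.8 CPM beside 67.0 to 76.4 CPM, and NC ad lib HC zt15 replicate 4, at 139 CPM beside 82.4 to 93.1 CPM. In HFS TRF ORM+1 h, replicate 3 stood apart for Per3 (23.9 CPM beside 16.6 to 18.6 CPM) and for Cry1 (28.6 CPM beside 21.0 to 23.3 CPM), and replicate 5 for Cry2 (175 CPM beside 190 to 199 CPM). For Cry1, NC ad lib ORM+1 h replicate 2 had 30.4 CPM beside 20.7 to 23.7 CPM.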

How the results depend on the processing

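Of 15 comparisons of a member between HC zt15 and HC zt3, 8 were called, and the other models called 7 to 9. Of 15 at ORM+1 h, 8 were called, and the other models called 7 to 10. Leaving out 1 mouse gave 7 to 9 and 7 to 8 calls, 0 to 1 for ORM+12 h against HC zt15, 1 to 2 between diets and 0 to 1 interactions. The single call at ORM+12 h fell to 0 with only the groups compared and with either marker score as a covariate. The 2 diet calls fell to 1 with only the groups compared and with the choroid plexus score. The 0 interactions became 1 with the replicate block within condition. Over 47 fold changes of members, 496 of 554 values with 1 mouse left out kept their direction and side of the threshold, 30 lost and 4 gained a call and 24 turned sign. Of 425 values under the other alternatives these were 397, 12, 10 and 6. The signs turned only near 0, namely Cry2 in NC ad lib at HC zt15 (0.00 with filterByExpr and with only the groups compared, -0.02 to 0.06 without 1 mouse) and at ORM+1 h (-0.01 with filterByExpr, -0.01 to 0.05), Per2 in NC ad lib at ORM+12 h (0.00 with a minimum of 1 count and with the block within experiment, -0.03 with the astrocyte score, -0.07 to 0.09), Per3 in HFS ad lib at HC zt15 (-0.04 to 0.09) and ORM+12 h (-0.03 to 0.10), Cry2 in HFS ad lib at ORM+1 h (0.00 to 0.06) and Per1 in NC ad lib at ORM+12 h (-0.03 to 0.16). The cause was not tested. Over all genes same-numbered mice did not deviate together throughout: in 1 of 66 pairs of groups every correlation of their deviations was over 0.1 (range -0.69 to 0.73), and in 0 of the 15 pairs within the second experiment. The number nevertheless had an adjusted p under 0.05 for 10.5% of genes in that experiment, Per1 and Per2 among them, so it is not without effect there. The replicate block gave 7, 8, 1, 2 and 0 calls. Mice of 1 group may differ for technical reasons as well. In the simulation of NC ad lib HC zt15 against HC zt3, changes of 1.3 and 1.5 times were only partly recovered (27 and 39 of 50). Far fewer genes changed there than the 3534 called in the data, so recovery in the data may differ.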

Other observations

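In the second experiment, levels of Per2 and Per1 differed with the replicate number in the labels, a comparison chosen after seeing the data. Over the zt15 and ORM+12 h groups the mean of Per2 was 23.8, 24.7 and 26.9 CPM in mice numbered 1, 2 and 3 and 32.9, 34.5 and 35.7 CPM in mice numbered 4, 5 and 6, and in 5 of 6 groups all mice numbered 4 to 6 were above all mice numbered 1 to 3. For Per1 the means were 84.8, 78.6, 95.1, 105, 107 and 101 CPM. In edgeR's quasi-likelihood F test of the number within that experiment the adjusted p was 1.6e-05 for Per2, 0.00562 for Per1, 0.0609 for Cry2, 0.460 for Per3 and 0.801 for Cry1, and 10.5% of all genes were called. In the first experiment no gene was called and all members had an adjusted p of 1.00. What the numbers stand for is not given in the sources used here.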
